A study of Mus musculus with 36 samples.

Results

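The 4 long noncoding RNA genes Neat1, Malat1, Tug1 and Miat and the 3 protein genes Sfpq, Nono and Pspc1 were followed through nuclear and cytoplasmic RNA of a mouse cell line and a clone derived from it. They are the genes of the paraspeckle core and of long nuclear RNAs, and were taken by symbol, 7 of the 26400 genes in the count table. Neat1 and Malat1 were among the most abundant nuclear RNAs, and their share of the cytoplasmic RNA rose at 24 h of hypoxia in both cell lines studied. In normoxia, the share of Neat1 was higher in the miR-466c deletion line than in the parental line in both fractions, whereas that of Malat1 was lower. Miat was almost undetected, so 6 of the 7 genes could be tested.

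The parental line was C166, an endothelial line from mouse yolk sac, labelled wildtype. The other line, C1.1, labelled mutant, was derived from it with CRISPR-Cas9 by removing a miR-466c hairpin from an intron of Sfmbt2. It is 1 clone grown from a single sorted cell, so a difference between the lines cannot be told apart from a difference between clones. Cells of each line were kept in normoxia or in hypoxia of 1% oxygen for 2 h or 24 h and were then separated into nuclear and cytoplasmic fractions. Each of the 12 groups of line, time and fraction had 3 libraries of rRNA-depleted total RNA, 36 in all. Nothing in the labels gives replicates a culture of their own, so p-values here measure the spread between these libraries, which may be technical.

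Totals were 20745543 to 28667821 counts per library in the cytoplasm and 15314724 to 24940907 in the nucleus. In 1 library, C166 cytoplasm in normoxia replicate 1, only 11903 genes had a count, against 14879 or more in every other library. The defining endothelial markers were absent or nearly so: Cdh5 and Tie1 were at 0 in 35 of the 36 libraries, Kdr in 31 and Pecam1 in 14. The 8 endothelial markers with a row (of 12 sought) summed to 1.98 to 14.3 CPM (counts-per-million) per library, and 9 markers of smooth muscle and mesenchyme to 622 to 6103 CPM. Of the latter, Acta2 and Col1a1 were the highest, at means of 1474 and 602 CPM over all libraries. Myh11 was at 0 in 20 of the 36 libraries and Lum in 32. Markers of blood (0 to 4.95 CPM) and of epithelium (0 to 1.29 CPM) were low throughout. In RNA of whole cultures, fewer cells of a type and less RNA per cell cannot be told apart.

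Paraspeckles are nuclear bodies built on the long isoform of Neat1, on which the RNA-binding proteins SFPQ, NONO and PSPC1 assemble. They are known to retain certain RNAs and proteins in the nucleus and to grow under stress, and NEAT1 is known in human cells as a target of hypoxia-inducible factors. Malat1 gathers in nuclear speckles, where splicing factors are stored, and in endothelium it is known to affect the balance of migration and proliferation. Tug1 is found in both nucleus and cytoplasm. Miat forms its own nuclear dots and binds splicing regulators.

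Neat1 and Malat1 are neighbours on the minus strand of chromosome 19. In GRCm38 with the GENCODE M21 annotation, Neat1 (ENSMUSG00000092274) lies at chr19:5824708-5845478 and Malat1 (ENSMUSG00000092341) at chr19:5795690-5802672, with 22035 bases between the 5′ end of Malat1 and the 3′ end of Neat1. The annotation gives Neat1 4 transcripts, of 20771, 3004, 1030 and 711 bases. All lie within the same locus, and the counts are per gene, so the long isoform that builds paraspeckles and the short ones were not separated. Malat1 and the long isoform of Neat1 end without a usual poly(A) tail, at a U-rich and A-rich element known to fold into a triple helix that protects the 3′ end. The element is shown because it is the sequence feature that sets these 2 RNAs apart from the other members. Capitals mark 2 U-rich runs and 1 A-rich run, read 5′ to 3′ on the RNA's strand from GRCm38.
Neat1, chr19:5824708-5824797, minus strand: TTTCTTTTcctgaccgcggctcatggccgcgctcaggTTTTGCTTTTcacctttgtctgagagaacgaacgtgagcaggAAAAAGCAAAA
Malat1, chr19:5795982-5796065, minus strand: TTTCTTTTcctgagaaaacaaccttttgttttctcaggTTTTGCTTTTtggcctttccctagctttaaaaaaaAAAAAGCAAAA

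The Neat1 element was the last 90 bases of its longest transcript, and the Malat1 element of 84 bases ended 292 bases before the end of the annotated transcript. Of 55341 gene symbols with a transcript in the annotation, Malat1 and Neat1 were the only ones that held the 3 runs in this order within 100 bases (0.00361%). The runs were chosen after reading these 2 transcripts, so this count is a description. The U-rich run TTTTGCTTTT alone was found in 1023 genes (1.85%) and the A-rich run AAAAAGCAAAA alone in 376 (0.679%).

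Tug1 (ENSMUSG00000056579, chr11:3639785-3649673, minus strand) lies opposite Morc2a, and Miat (ENSMUSG00000097767, chr5:112213228-112229395, minus strand) opposite Gm26953. The 3 protein genes are Sfpq (ENSMUSG00000028820, chr4:127021324-127037013, plus strand), Nono (ENSMUSG00000031311, chrX:101429318-101448591, plus strand) and Pspc1 (ENSMUSG00000021938, chr14:56720710-56778316, minus strand). Malat1 is overlapped on the other strand by Gm37376, and small same-strand gene models lie within Neat1, Malat1, Tug1, Miat and Sfpq. Whether strand was used in the counting is not given in the sources used here, so reads of Malat1, Tug1 and Miat and of their opposite-strand neighbours cannot be told apart.

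The promoters below are from RefSeq on GRCm38.p6, 250 bases before to 50 bases after each start site, for Malat1, the most abundant member, and for the 3 protein genes, which share a protein family. Of the members, 6 had a RefSeq promoter and Neat1 did not. In Malat1, capitals mark a match to the hypoxia response element core, ACGTG or GCGTG, on either strand. In Sfpq, Nono and Pspc1 they mark the CCAAT box, a common promoter motif, on either strand (ATTGG on the strand shown).
Malat1, chr19:5802623-5802922, minus strand: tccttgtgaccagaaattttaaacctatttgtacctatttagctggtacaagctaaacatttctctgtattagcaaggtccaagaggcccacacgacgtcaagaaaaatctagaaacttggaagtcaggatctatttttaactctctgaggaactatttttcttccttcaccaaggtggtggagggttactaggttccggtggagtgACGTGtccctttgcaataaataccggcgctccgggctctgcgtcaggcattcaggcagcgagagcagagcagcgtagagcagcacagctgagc
Sfpq, chr4:127021051-127021350, plus strand: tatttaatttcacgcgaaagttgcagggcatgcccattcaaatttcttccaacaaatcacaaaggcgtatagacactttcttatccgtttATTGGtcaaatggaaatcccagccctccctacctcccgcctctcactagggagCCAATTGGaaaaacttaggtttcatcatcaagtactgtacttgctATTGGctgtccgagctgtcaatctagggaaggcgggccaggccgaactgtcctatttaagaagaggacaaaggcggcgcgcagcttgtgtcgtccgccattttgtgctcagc
Nono, chrX:101429401-101429700, plus strand: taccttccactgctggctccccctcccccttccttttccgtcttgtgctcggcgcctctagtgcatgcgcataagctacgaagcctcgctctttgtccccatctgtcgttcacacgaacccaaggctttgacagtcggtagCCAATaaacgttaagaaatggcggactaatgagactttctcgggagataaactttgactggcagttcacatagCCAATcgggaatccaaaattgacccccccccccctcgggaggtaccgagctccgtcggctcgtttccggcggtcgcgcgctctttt
Pspc1, chr14:56778269-56778568, minus strand: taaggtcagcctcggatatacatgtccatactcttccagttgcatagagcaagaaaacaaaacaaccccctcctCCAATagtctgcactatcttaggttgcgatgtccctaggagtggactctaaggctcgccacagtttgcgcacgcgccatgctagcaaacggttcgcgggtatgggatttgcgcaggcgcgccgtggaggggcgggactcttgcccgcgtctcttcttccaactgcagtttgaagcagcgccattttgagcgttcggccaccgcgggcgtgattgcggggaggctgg

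The Malat1 match was 43 bases before the start site. Tug1, Miat and Sfpq each had 1 match to that core, Pspc1 had 2 and Nono had none, and 43.8% of all 32851 promoters held at least 1. Sfpq had 4 CCAAT matches, of which the pair 107 and 104 bases before the start site overlap on opposite strands. Nono had 2 matches and Pspc1 had 1. A CCAAT match was present in 37.4% of all promoters and 2 or more in 11.7%. A match is a description of letters in this window and not a binding site.

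Levels are given as CPM (counts-per-million) after scaling all 36 libraries by trimmed mean of M-values (TMM). Neat1 was higher in C1.1 than in C166 at every time. In the C166 nucleus it was counted 55183, 51457 and 60188 times in normoxia, 3164, 2846 and 3173 CPM. In the C1.1 nucleus in normoxia it was counted 235782, 192689 and 277803 times, 11876, 11281 and 13166 CPM. The libraries of the 2 lines did not overlap, and the lowest C1.1 library stood above the highest of C166.

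At 2 h the nuclear level of Neat1 was 3846, 3033 and 2998 CPM in C166 and 12299, 12543 and 12486 CPM in C1.1. At 24 h it was 2701, 2422 and 2324 CPM in C166 and 11077, 9623 and 8611 CPM in C1.1. In both lines, all 3 libraries at 24 h were below the 3 in normoxia, while the libraries at 2 h overlapped those in normoxia. Neat1 ranked 2nd to 16th among all genes in the nuclear groups and took 0.258% to 1.35% of the counts. In the nucleus, the order of the group means was C1.1 at 2 h, in normoxia and at 24 h, then C166 at 2 h, in normoxia and at 24 h.

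In the cytoplasm Neat1 was much scarcer and moved the other way. In C166 it was at 102, 102 and 105 CPM in normoxia, 147, 131 and 115 CPM at 2 h and 301, 260 and 297 CPM at 24 h. In C1.1 it was at 372, 341 and 339 CPM in normoxia, 335, 459 and 492 CPM at 2 h and 813, 651 and 864 CPM at 24 h. Within each line every 24 h library was above every other library of the line, and every C1.1 library in normoxia was above every C166 library at 24 h. Only the 2 h and normoxia libraries of C1.1 overlapped among neighbours in this order. The rank of Neat1 among all genes ran from 2471 in C166 in normoxia to 128 in C1.1 at 24 h.

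Malat1 was the most abundant of the genes studied and was ordered the other way by line. Its nuclear level in C166 was 18761, 17587 and 20273 CPM in normoxia, 14139, 12330 and 13843 CPM at 2 h and 17174, 16395 and 15763 CPM at 24 h. In the C1.1 nucleus it was 12894, 12335 and 13915 CPM in normoxia, 11229, 9108 and 11056 CPM at 2 h and 16175, 11115 and 11073 CPM at 24 h. The C166 groups were apart from each other. In C1.1, replicate 1 at 24 h stood far above the other two. The other two were below every library in normoxia and within the range of those at 2 h.

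In the cytoplasm Malat1 was at 5073, 4486 and 3937 CPM in C166 in normoxia, 5609, 4915 and 4234 CPM at 2 h and 8637, 9282 and 9137 CPM at 24 h. In C1.1 it was at 2723, 2719 and 2655 CPM in normoxia, 2452, 2558 and 2382 CPM at 2 h and 6277, 3600 and 3424 CPM at 24 h. The 24 h libraries were again the highest of each line, and C1.1 replicate 1 was again far from its partners. Malat1 ranked 1st to 3rd in the nuclear groups, with 1.13% to 1.86% of the counts, and 4th to 13th in the cytoplasmic ones.

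**Figure D1:**
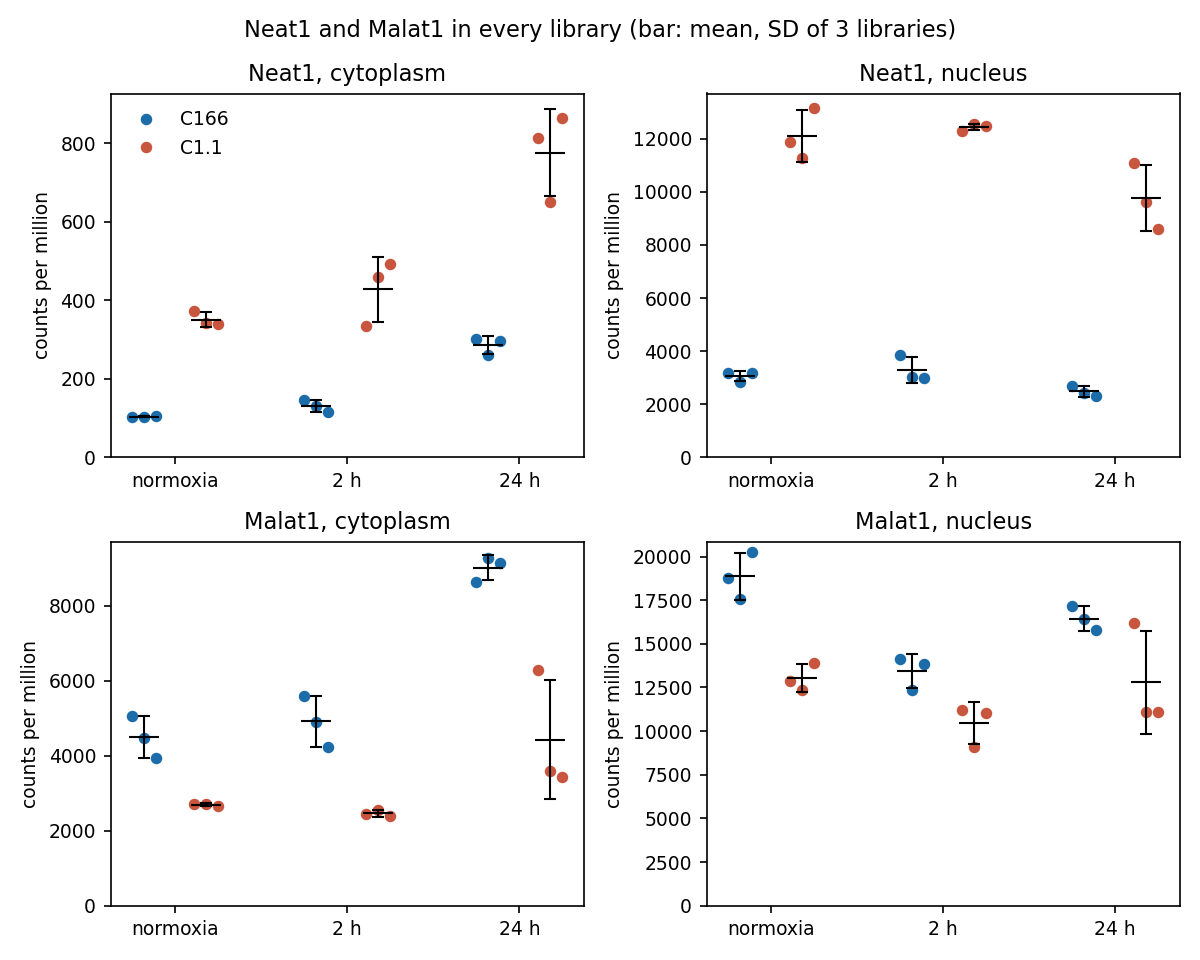
Neat1 and Malat1 in every library, in CPM (y axes from 0), by time (x axes), fraction (columns of panels) and line (colour). Points are libraries, bars the mean and SD of 3; Neat1 is higher in C1.1 in all panels, both RNAs are highest in the cytoplasm at 24 h, and the high Malat1 point of C1.1 at 24 h (6277 and 16175 CPM) is replicate 1.

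Compared per length of exon, in CPM per kilobase, Malat1 was the most abundant member in both fractions, with group means of 1499 to 2703 in the nucleus and 353 to 1292 in the cytoplasm. Neat1 was next in the nucleus at 120 to 599 CPM per kilobase, but in the cytoplasm it was at 4.96 to 37.4, below Nono at 91.9 to 121. Nono and Sfpq were at 102 to 135 and 71.0 to 107 CPM per kilobase in the nucleus. Tug1 was at 17.8 to 23.5 CPM per kilobase in the nucleus and 26.7 to 36 in the cytoplasm, and Pspc1 was the scarcest of the 6 in the nucleus at 6.23 to 9.65. Because Neat1 is divided here by its longest transcript, its value per length is low if short isoforms prevail.

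Miat had 8 counts in all 36 libraries and 0 in 33 of them. The counts were 4 in C166 cytoplasm at 24 h replicate 3, 3 in C166 nucleus in normoxia replicate 1 and 1 in C1.1 nucleus at 24 h replicate 1. A count of 0 allows up to 3 counts, which is 0.105 to 0.145 CPM per library in the cytoplasm and 0.120 to 0.196 CPM in the nucleus, for counting error only. No comparison of Miat was possible at this depth.

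The ratio of nucleus to cytoplasm was fitted with edgeR over all 36 libraries (quasi-likelihood test, Benjamini-Hochberg adjusted over 16682 genes). It compares the shares that a gene takes of the RNA of each fraction, and not amounts per cell. Neat1 stood 29.7-fold higher in the nucleus than in the cytoplasm of C166 in normoxia (log2 4.89, SE 0.14, edgeR adjusted p = 5.8e-25) and 34.5-fold in C1.1 (log2 5.11, SE 0.14, edgeR adjusted p = 1.6e-25). Malat1 stood 4.20-fold higher in C166 (log2 2.07, SE 0.15) and 4.83-fold in C1.1 (log2 2.27, SE 0.16). Tug1 went the other way, at 1.37-fold higher in the cytoplasm in C166 and 1.58-fold in C1.1. Such calls are common between fractions: in C166 in normoxia 31.8% of all genes passed the test (adjusted p under 0.05) toward the nucleus and 26.2% toward the cytoplasm, and in C1.1 28.6% and 29.0%.

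The mRNAs of Sfpq and Pspc1 were also enriched in the nucleus in both lines, with smaller ratios than Neat1. For Sfpq, whose protein holds the core of the paraspeckle together with NONO, the log2 ratio in normoxia was 0.89 (SE 0.08) in C166 and 0.94 (SE 0.08) in C1.1. For Pspc1, the third protein of this family, it was 0.82 (SE 0.12) and 1.39 (SE 0.12). For Nono it was 0.26 (SE 0.11, edgeR adjusted p = 0.041) in C166 and 0.21 (SE 0.11, edgeR adjusted p = 0.093) in C1.1. The Nono call was lost without C166 cytoplasm in normoxia replicate 1 (log2 0.13), the library with few detected genes, and also without C166 nucleus replicate 2 or 3 (log2 0.19 and 0.23). In C1.1, Nono passed under 6 of the 7 other settings (log2 0.25 to 0.42), all but the replicate block (0.22).

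In hypoxia the direction of each of these ratios stayed as in normoxia. At 2 h the log2 ratios in C166 were 4.65 for Neat1, 1.45 for Malat1, 0.77 for Pspc1, 0.64 for Sfpq and -0.46 for Tug1, and all 5 passed, as did 28.1% of all genes toward the nucleus and 25.8% toward the cytoplasm. In C1.1 at 2 h they were 4.86, 2.09, 1.60, 0.65 and -0.69, and all 5 passed (27.8% and 28.2% of all genes). At 24 h they were 3.12, 0.87, 0.76, 0.59 and -0.58 in C166 (27.2% and 27.0% of all genes) and 3.65, 1.53, 1.71, 0.85 and -0.55 in C1.1 (27.0% and 27.4%), and again all 5 passed in each line. Nono lay between 0.09 and 0.20 at these times and did not pass with TMM factors, except in C166 at 24 h without nucleus replicate 2 (0.29). It passed at all of them with DESeq2 or relative log expression factors, which moved the median ratio of all genes in C1.1 in normoxia from 0.03 to 0.24.

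**Figure D2:**
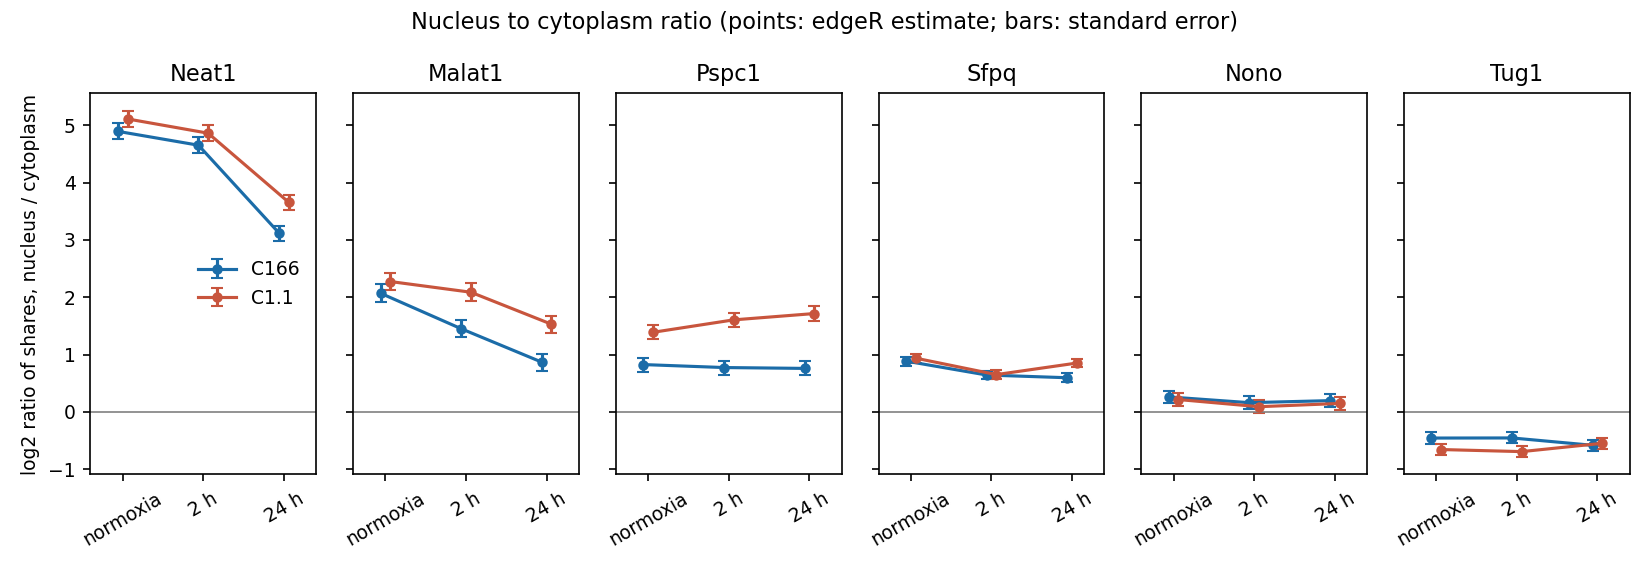
Log2 ratio of nucleus to cytoplasm (y axis) for the 6 tested genes in normoxia and at 2 h and 24 h of hypoxia (x axes) in C166 and C1.1. Points are edgeR estimates from 3 libraries per fraction and bars the standard error; the ratios of Neat1 and Malat1 are lower at 24 h than in normoxia in both lines, and Tug1 lies below 0 throughout.

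The ratio of Neat1 narrowed at 24 h, from 29.7-fold to 8.68-fold in C166 and from 34.5-fold to 12.6-fold in C1.1. The shift was -1.78 on the log2 scale in C166 (SE 0.17, edgeR adjusted p = 3.8e-08) and -1.46 in C1.1 (SE 0.17, edgeR adjusted p = 6.2e-07). It kept its call in each of the 12 fits per line that left out 1 library, at -1.84 to -1.72 in C166. Malat1 narrowed as well, from 4.20-fold to 1.82-fold in C166 (shift -1.20, SE 0.21, edgeR adjusted p = 0.00031) and from 4.83-fold to 2.88-fold in C1.1 (shift -0.74, SE 0.21, edgeR adjusted p = 0.016).

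The Malat1 call in C166 held in every leave-one-out fit, but the one in C1.1 was lost in 8 of 12. Those were the fits without C1.1 cytoplasm in normoxia replicate 1 or 2 (-0.68 each), C1.1 cytoplasm at 24 h replicate 1 (-0.41), any of the 3 libraries of C1.1 nucleus in normoxia (-0.63, -0.66 and -0.57) and C1.1 nucleus at 24 h replicate 2 or 3 (-0.65 each). Of the 6 members tested, 2 thus shifted toward the cytoplasm in each line and none toward the nucleus. Among all genes 5.17% shifted toward the cytoplasm and 3.25% toward the nucleus in C166, and 4.29% and 6.76% in C1.1. The values of Sfpq (-0.29 in C166, -0.09 in C1.1), Nono (-0.06 and -0.07), Pspc1 (-0.07 and 0.33) and Tug1 (-0.13 and 0.11) did not pass.

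At 2 h no member passed the test of the shift. In C166, 0.0240% of all genes passed, and the shift of Malat1 was -0.62 (SE 0.21). In C1.1 0% of all genes passed with edgeR, although 1647 had an unadjusted p under 0.05 and DESeq2 called 214, with Sfpq among them (-0.31). The values of Neat1 at 2 h were -0.24 in C166 and -0.25 in C1.1.

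Other nuclear long noncoding RNAs gave a reference for how nuclear RNA behaved in the fractions. Of the 13 tested genes of that list (17 sought), 10 were higher in the nucleus in C166 in normoxia and 7 in C1.1. None was lower. Over all genes, 31.8% were higher in the nucleus in C166 and 28.6% in C1.1. The median log2 ratio of the list was 2.18 in C166 and 2.19 in C1.1, against 0.17 and 0.03 over all genes. Kcnq1ot1, the long antisense RNA of an imprinted domain, had a log2 ratio of 3.54 in C166 and 3.25 in C1.1. At 24 h the median shift of the list was -0.48 in C166 and 0.11 in C1.1, against -0.10 and 0.01 over all genes. Within it Kcnq1ot1 was at -0.05 (SE 0.18) in C166 and 0.11 (SE 0.18) in C1.1, and neither passed.

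The cytoplasmic level of Kcnq1ot1 was 30.1 ± 2.64 CPM in C166 in normoxia and 32.1 ± 5.47 CPM at 24 h (SD, n = 3). In C1.1 it fell from 73.0 ± 5.39 to 40.8 ± 2.23 CPM. Nuclear Kcnq1ot1 fell in C1.1 as well, from 697 ± 39.7 to 419 ± 28.1 CPM (log2 -0.71, SE 0.11, edgeR adjusted p = 1.2e-05). In the C166 nucleus it was at 350 ± 28.0 and 359 ± 82.3 CPM. Cytoplasmic Neat1 was at 103 ± 1.73 CPM in normoxia and 286 ± 22.2 CPM at 24 h in C166, and at 351 ± 18.6 and 776 ± 111 CPM in C1.1. Of the list, 2 genes shifted toward the cytoplasm in C166 (Ftx at -0.65 and Firre at -2.16) and 1 in C1.1 (Pvt1 at -0.79). Over all genes, 5.17% shifted that way in C166 and 4.29% in C1.1. The value of Firre rests on few counts, with 0.312 ± 0.280 CPM in the C166 cytoplasm in normoxia and 1.61 ± 0.487 CPM at 24 h. Of the 12 mRNAs chosen as cytoplasmic controls, 9 were lower in the nucleus in C166 in normoxia and 10 in C1.1. The shares of all genes were 26.2% and 29.0%. Among the controls, Rplp0 was at -2.16 and -1.94 and Actb at -1.10 and -1.36. Some of the 12 controls also shifted toward the cytoplasm at 24 h, such as the elongation factor Eef2 at -1.34 in C166 and -1.86 in C1.1. Leakage of nuclear RNA during fractionation was not tested.

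Some genes of speckle proteins shifted toward the cytoplasm like Malat1, but the median shift of their list was above that of all genes. Son and Srrm2, large scaffold proteins of nuclear speckles, had mRNAs enriched in the nucleus of C166 in normoxia (log2 1.64 and 1.56). At 24 h their ratio shifted by -0.86 and -1.02 in C166 and by -0.79 and -1.04 in C1.1. Of the 16 tested genes of this list, 3 shifted toward the cytoplasm and 0 toward the nucleus in C166 (5.17% and 3.25% of all genes). In C1.1, 2 shifted toward the cytoplasm and 5 toward the nucleus (4.29% and 6.76% of all genes). The splicing factor genes Srsf3 (0.54) and Srsf2 (0.50) were among those 5. The list's median shift was -0.01 in C166 and 0.30 in C1.1, against -0.10 and 0.01 over all genes.

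Within the cytoplasm, tested on its 18 libraries alone, Neat1 rose 2.80-fold at 24 h of hypoxia in C166 (log2 1.49, SE 0.13, edgeR adjusted p = 2.0e-08) and 2.26-fold in C1.1 (log2 1.18, SE 0.12, edgeR adjusted p = 2.9e-07). Malat1 rose 2.02-fold in C166 (log2 1.02, SE 0.16, edgeR adjusted p = 5.1e-05) and 1.68-fold in C1.1 (log2 0.75, SE 0.16, edgeR adjusted p = 0.00091). These 4 calls held in every leave-one-out fit and with DESeq2. The size for Malat1 in C1.1 was less stable, at 0.41 to 0.90 over the leave-one-out fits. Its replicate 1 at 24 h was at 6277 CPM, against 3600 and 3424 CPM in the other libraries. The marker genes of smooth muscle and mesenchyme moved in the same comparison. Their summed level went from 4338 to 6103 CPM in the C166 cytoplasm in normoxia to 1166 to 1313 CPM at 24 h, with 4 of the 7 tested lower and none higher (median log2 change -2.05). In C1.1 it went from 1413 to 1618 CPM to 622 to 699 CPM, with 3 lower and 2 higher (median 0.14), and the part of these genes in the rises of Neat1 and Malat1 was not tested. Rises passed for 18.2% of the 14998 genes tested in C166 and for 18% in C1.1, and falls for 17.5% and 18.1%.

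None of the paraspeckle protein genes Sfpq, Nono and Pspc1 rose in the cytoplasm at 24 h. In C1.1 at 24 h, Pspc1 fell by 0.75 on the log2 scale (SE 0.16, edgeR adjusted p = 0.00090), from 21.3, 17.1 and 17.6 CPM to 12.4, 10.5 and 9.76 CPM, and the groups did not overlap. Sfpq fell by 0.42 (SE 0.08, edgeR adjusted p = 0.00024), from 273, 254 and 271 CPM to 197, 193 and 195 CPM. Nono fell by 0.29 (edgeR adjusted p = 0.036), but this call was lost in 5 of 6 leave-one-out fits. It held only without C1.1 cytoplasm at 24 h replicate 2, and the values ran from -0.33 to -0.25.

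In C166 cytoplasm at 24 h the log2 changes of these genes were -0.26 for Pspc1, -0.09 for Sfpq and -0.19 for Nono, and none passed. For Nono the replicate 1 of normoxia with few detected genes was low, at 385 CPM against 518 and 530, and without it Nono passed (-0.31). Tug1 fell by 0.23 in C166 (edgeR adjusted p = 0.043). That call was lost in 5 of 6 leave-one-out fits (all but the one without normoxia replicate 3, with values of -0.30 to -0.18) and under 5 of the 7 other settings. In C1.1 Tug1 was at 0.11 and did not pass.

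At 2 h no member passed in the cytoplasm of either line, where 1.34% of all genes passed in C166 and 1.95% in C1.1. The largest values were those of Neat1, at 0.34 (SE 0.12) in C166 and 0.29 (SE 0.12) in C1.1. Neat1 passed in C166 with no filter on low counts, and Sfpq (0.25) passed there with DESeq2.

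**Figure D3:**
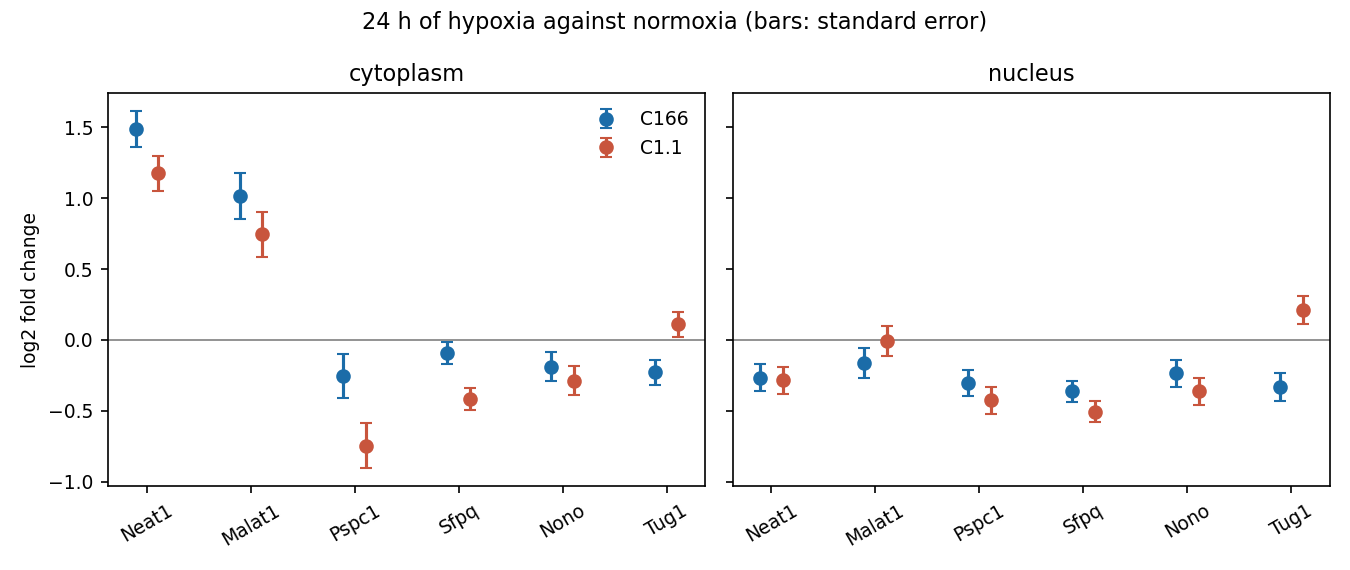
Log2 fold change at 24 h of hypoxia against normoxia (y axis) for the 6 tested genes (x axis), in the cytoplasm (left) and the nucleus (right), for C166 and C1.1. Points are edgeR estimates from 3 libraries against 3 and bars the standard error; Neat1 (1.49 and 1.18) and Malat1 (1.02 and 0.75) lie above 0 in the cytoplasm, while in the nucleus the only point above 0 is Tug1 in C1.1 (0.21, not past the test).

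In the nucleus the 3 protein genes fell together at 24 h, although Nono did not pass in C166. Sfpq fell in C166 from 425, 437 and 469 CPM to 339, 344 and 328 CPM (log2 -0.36, SE 0.07, edgeR adjusted p = 0.00034). In C1.1 it fell from 510, 503 and 515 CPM to 316, 354 and 387 CPM (log2 -0.51, SE 0.07, edgeR adjusted p = 3.5e-06). The groups did not overlap in either line.

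The log2 change of Pspc1 was -0.30 in C166 (SE 0.09, edgeR adjusted p = 0.010) and -0.43 in C1.1 (SE 0.09, edgeR adjusted p = 0.00051), a fall in both. Nono fell by 0.36 in C1.1 (SE 0.10, edgeR adjusted p = 0.0031), and in C166 it was at -0.23 (SE 0.10, edgeR adjusted p = 0.056), with a pass without replicate 1 of C166 nucleus in normoxia (-0.29) or at 24 h (-0.28). Neat1 fell by 0.27 in C166 (edgeR adjusted p = 0.029) and by 0.29 in C1.1 (edgeR adjusted p = 0.016). The Neat1 calls were lost without C166 nucleus in normoxia replicate 1 or 3 or C166 nucleus at 24 h replicate 2 or 3 (-0.26 to -0.23), with upper-quartile factors (-0.22) and library totals alone (-0.23) in C166, and without replicate 3 of C1.1 nucleus in normoxia (-0.23) or at 24 h (-0.20).

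The smooth muscle and mesenchyme markers were also lower in the C166 nucleus at 24 h, at 1740 to 2684 CPM summed against 4470 to 5213 CPM in normoxia (4 of 7 lower, 1 higher). In the C1.1 nucleus they were at 1136 to 1385 CPM against 1426 to 1490 CPM (2 lower, 3 higher), and their part in these falls was not tested.

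Tug1 fell in the C166 nucleus from 218, 224 and 232 CPM to 185, 175 and 161 CPM (log2 -0.33, SE 0.10, edgeR adjusted p = 0.0081). In the C1.1 nucleus it was at 202, 210 and 184 CPM in normoxia and 198, 213 and 269 CPM at 24 h, which did not pass (log2 0.21, SE 0.10). Without C1.1 nucleus at 24 h replicate 1 the value was 0.29 and passed. Nuclear Malat1 did not pass at 24 h in C166 (-0.16, SE 0.11) or in C1.1 (-0.01, SE 0.11). In C1.1 it passed at -0.22 without replicate 1 at 24 h, the library in which it was high. In all, 4 of the 6 tested members fell in each line and none rose, where 18.4% of the 15735 genes tested fell and 19.2% rose in C166, and 20.5% and 22.3% in C1.1.

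At 2 h nuclear Malat1 was 1.41-fold lower than in normoxia in C166 (log2 -0.49, SE 0.11, edgeR adjusted p = 0.0079), where 2.30% of all genes passed. The call was lost without C166 nucleus in normoxia replicate 3 (-0.44) or at 2 h replicate 2 (-0.43). In C1.1 the value was -0.32 (SE 0.11) and did not pass, where 3.29% of all genes passed, though it passed with no filter on low counts and when only the libraries compared were fitted. No other member passed in the nucleus at 2 h in either line.

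**Figure D4:**
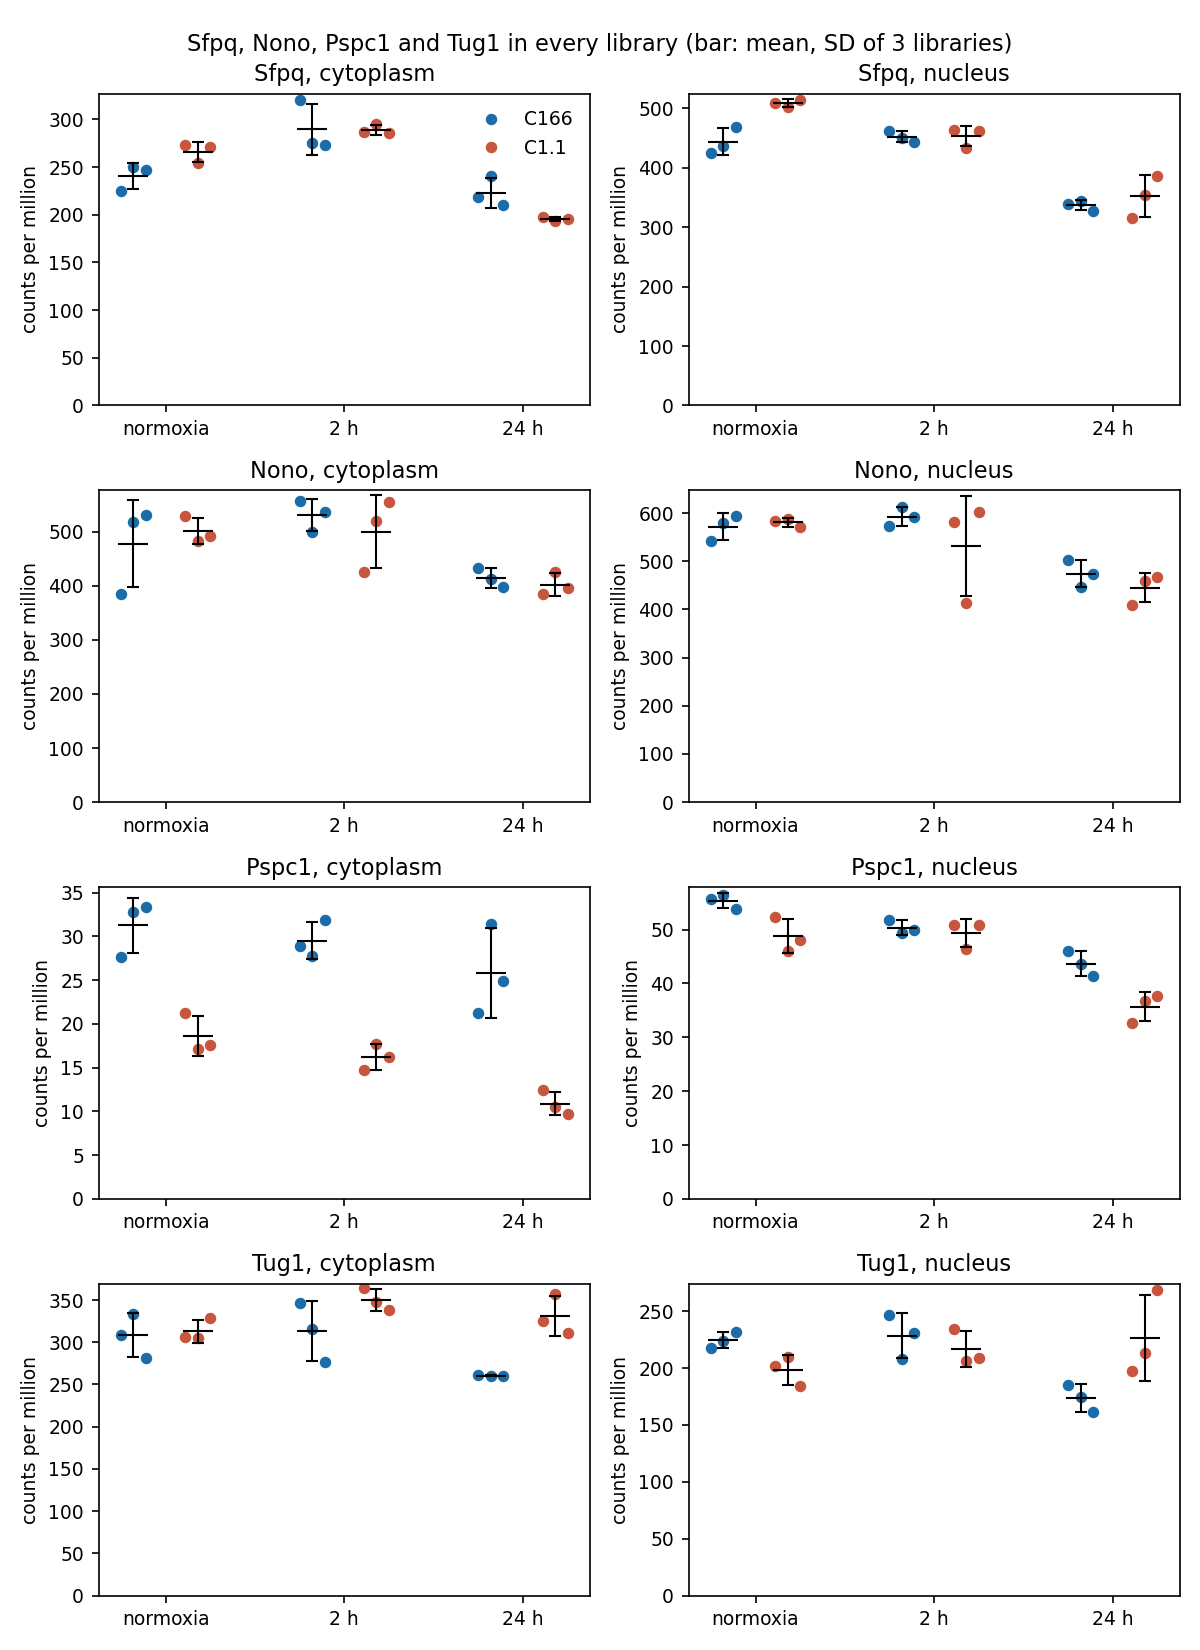
Sfpq, Nono, Pspc1 and Tug1 in every library, in CPM (y axes from 0), by time (x axes), fraction (columns of panels) and line (colour). Points are libraries and bars the mean and SD of 3; nuclear Sfpq and Pspc1 are lowest at 24 h in both lines, and cytoplasmic Pspc1 is lower in C1.1 (group means 10.9 to 18.6 CPM) than in C166 (25.8 to 31.2 CPM).

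In the wider set of paraspeckle protein genes more passed as lower than as higher at 24 h. Without Sfpq, Nono and Pspc1, 30 genes of the list were tested. At 24 h in the nucleus 10 fell and 5 rose in C166, and 13 fell and 3 rose in C1.1. Over all genes 18.4% fell and 19.2% rose in the C166 nucleus, and 20.5% and 22.3% in that of C1.1. In the cytoplasm 9 fell and 3 rose in C166 (17.5% and 18.2% of all genes), and 12 fell and 4 rose in C1.1 (18.1% and 18%). The median of the list with all 33 genes was -0.21 in the C166 nucleus and -0.23 in the C1.1 nucleus, where the median over all genes was 0.00 in each.

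Hnrnpa1, a splicing repressor, fell by 0.68 in the C166 nucleus and by 0.61 in the C1.1 nucleus. Zc3h6, a zinc finger gene, rose there by 1.82 and 1.98. Smarca4, the ATPase of a chromatin remodelling complex, fell by 0.82 in the C1.1 nucleus. In the nucleus to cytoplasm ratio in C166 in normoxia, 14 of the 30 were higher in the nucleus and 8 lower, against 31.8% and 26.2% of all genes. Among them were Smarca4 at 1.09 and Rbm7, a subunit of a nuclear exosome adaptor, at -1.61. Of the 16 speckle genes, 9 fell and 2 rose in the C166 nucleus at 24 h, and 8 fell and 2 rose in the C1.1 nucleus, where the shares of all genes were 18.4% and 19.2%, and 20.5% and 22.3%. Clk1, a kinase of splicing factors, was among those that rose (0.50 and 0.93).

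Of these genes, Neat1 differed most between the lines before hypoxia. In normoxia it stood 3.36-fold higher in C1.1 than in C166 in the cytoplasm (log2 1.75, SE 0.13, edgeR adjusted p = 1.7e-09) and 3.98-fold higher in the nucleus (log2 1.99, SE 0.10, edgeR adjusted p = 1.1e-14). Malat1 was 1.69-fold lower in the cytoplasm (log2 -0.76, SE 0.16, edgeR adjusted p = 0.00098) and 1.44-fold lower in the nucleus (log2 -0.52, SE 0.11, edgeR adjusted p = 0.00028). Both genes kept their calls in every leave-one-out fit. The adjacent genes thus differed in opposite directions between the lines.

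Pspc1 was 1.69-fold lower in C1.1 in the cytoplasm, at 21.3, 17.1 and 17.6 CPM against 27.6, 32.8 and 33.3 CPM in C166 (log2 -0.76, SE 0.16, edgeR adjusted p = 0.00078). In the nucleus it was at -0.17 (SE 0.09) and did not pass. Sfpq passed in the nucleus at 0.21 (edgeR adjusted p = 0.028), a call lost without C166 replicate 1 or 2 or C1.1 replicate 1 or 3 (0.18 to 0.21), and was at 0.13 in the cytoplasm. Nono and Tug1 did not pass in either fraction. Of the 7 other settings, 1 lost the call of nuclear Sfpq. Cytoplasmic Sfpq and nuclear Tug1 each passed under 1. In the cytoplasm 18.2% of all genes were higher in C1.1 and 17.3% lower, and in the nucleus 18.8% and 21.2%.

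**Figure D5:**
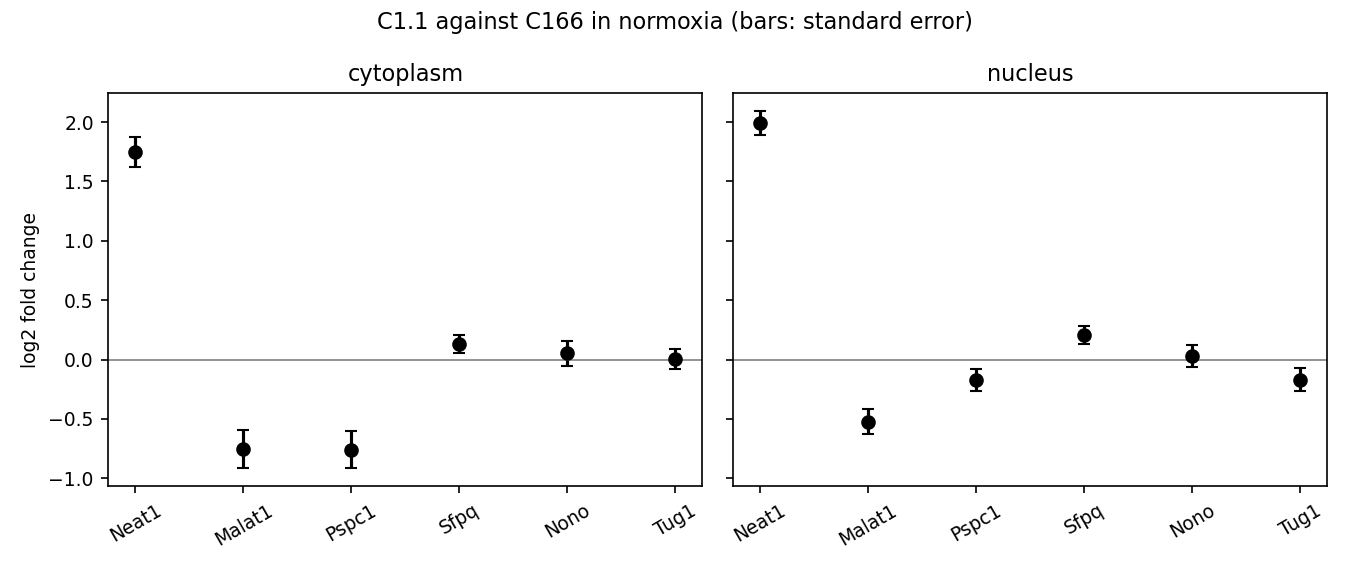
Log2 fold change of C1.1 against C166 in normoxia (y axis) for the 6 tested genes (x axis), in the cytoplasm (left) and the nucleus (right). Points are edgeR estimates from 3 libraries against 3 and bars the standard error; Neat1 lies far above 0 in both fractions (1.75 and 1.99) and Malat1 below (-0.76 and -0.52).

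Among the 30 other paraspeckle protein genes tested, 6 were higher and 5 lower in C1.1 in the cytoplasm, against 18.2% and 17.3% of all genes. In the nucleus 10 were higher and 5 lower, against 18.8% and 21.2%. Hnrnpa1 was lower in both fractions (-0.98 and -0.85), as was the cleavage factor gene Nudt21 (-0.69 and -0.78), and Smarca4 was higher (0.76 and 0.52). Of the other nuclear long noncoding RNAs, Kcnq1ot1 was higher in C1.1 in both fractions (1.26 and 1.00). The smooth muscle and mesenchyme markers also differed between the lines, with 5 of the 7 tested lower in C1.1 in each fraction and a median of -1.92 in the cytoplasm and -2.06 in the nucleus. Their part in the difference of Neat1 or Malat1 was not tested.

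Whether the lines differed in how the members were distributed between nucleus and cytoplasm was tested in normoxia. No member passed, where 0.330% of all genes passed toward the nucleus of C1.1 and 0.336% toward its cytoplasm. The difference was 0.22 for Neat1 (95% interval 0.923 to 1.46 as a fold) and 0.20 for Malat1 (0.867 to 1.53). The largest was that of Pspc1, at 0.56 (SE 0.17, edgeR adjusted p = 0.13, interval 1.17 to 1.87 as a fold). Pspc1 passed with relative log expression factors (0.65), upper-quartile factors (0.68) and DESeq2 (0.65), and its adjusted p ran from 0.010 to 0.21 over the 7 other settings.

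The response to 24 h of hypoxia differed between the lines for 1 member. In the nucleus Tug1 fell in C166 and not in C1.1, and the difference of 0.55 passed (SE 0.14, edgeR adjusted p = 0.020), where 2.89% of all genes passed as higher in C1.1 and 1.87% as lower. That call was lost without replicate 3 of C166 nucleus in normoxia (0.52) or at 24 h (0.50), or replicate 3 of C1.1 nucleus in normoxia (0.49) or at 24 h (0.41). In the cytoplasm no member passed, where 1.39% of all genes were higher and 0.940% lower. The differences there were -0.31 for Neat1 (SE 0.17) and -0.27 for Malat1 (SE 0.23). Without C1.1 cytoplasm at 24 h replicate 1, the library in which it was high, the difference of Malat1 was -0.61 and passed. Sfpq (-0.32, SE 0.11) passed with DESeq2.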

How the data were processed

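Nuclear and cytoplasmic RNA of C166 and C1.1 cells was sequenced after rRNA depletion on stranded libraries, per the labels. Gene counts were deposited by the authors in 1 table, and its columns of raw counts were used here. The submitters' notes name Bowtie2 2.2.2, TopHat2 2.0.11, Cufflinks 2.2.1, featureCounts and edgeR with GRCm38, and which of them made the counts is not given in the sources used here. The 36 columns of normalized counts were not used, nor were columns of the authors' own comparisons, which hold log2 fold changes, standard errors and p-values.

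Counts were tested with edgeR 4.0.16 (R 4.3.3, limma 3.58.1): filterByExpr with a minimum count of 10, TMM factors, quasi-likelihood F-test, Benjamini-Hochberg over all genes tested, threshold 0.05. Ratios of nucleus to cytoplasm came from 1 fit of all 36 libraries (16682 genes), and hypoxia and line comparisons from a fit of the 18 libraries of each fraction (14998 genes in the cytoplasm, 15735 in the nucleus). SE was the log2 change divided by the square root of F. CPM used a prior count of 2 only on the log2 scale. The code was tested on simulated data. DESeq2 1.42.0, other scaling, no filter, only the libraries compared, a replicate block and leaving out each library were alternatives. Positions came from GENCODE M21, promoters from RefSeq. The hairpin deleted in C1.1 was not analysed here.

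Members and lists were chosen with earlier results of these data known. Named were the members, up to 4 genes of each list with the smallest p in a comparison, and for Neat1, Malat1 and Sfpq the 3 genes of most similar pattern. Where the value of a list gene is given in a further comparison, as for Kcnq1ot1, that was chosen after values were seen. Replicates of a group differed by more than counting noise in all 36 pairs (chi-square per gene 3.36 to 57.7), so fold intervals from edgeR include the spread between libraries, while the floors for Miat cover counting error only. Same-numbered libraries correlated over 0.1 in their deviations from group means in 0 of 12 pairs of hypoxia and normoxia in each fraction. The same held for 0 of 3 pairs of lines in each fraction. For nucleus and cytoplasm it was 1 of 18 pairs (C1.1 at 24 h replicate 1, 0.23). There the same-numbered library was the best match in 12 of 18 pairs. A weak pairing of the fractions is therefore possible, and the main fits did not use it.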

Additional observations from a re-analysis of the deposited data

Results flagged for a closer look

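The difference between the lines in the response of nuclear Tug1 to 24 h of hypoxia met the criterion of a tested difference between groups. The value, C1.1 minus C166, was 0.55 on the log2 scale (SE 0.14, edgeR adjusted p = 0.020), with all 3 C166 libraries at 24 h below those in normoxia and the C1.1 groups overlapping. It was lost without any 1 of 4 libraries, all numbered replicate 3, as given above.

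The effect of 24 h of hypoxia differed between the 2 fractions for Neat1 and for Malat1, tested as an interaction. The log2 difference, nucleus minus cytoplasm, was -1.78 for Neat1 in C166 and -1.46 in C1.1, and -1.20 for Malat1 in C166 and -0.74 in C1.1. In each case the cytoplasmic level was higher at 24 h in 3 of 3 libraries than in any library in normoxia. The Malat1 call in C1.1 was lost in 8 of 12 leave-one-out fits, as given above. The 13 tested genes of the list of other nuclear long noncoding RNAs had a median shift of -0.48 in C166 and 0.11 in C1.1, with Ftx (-0.65) and Firre (-2.16) past the test in C166 and Kcnq1ot1 at -0.05 there. Firre had few counts, at a mean of 0.312 CPM in the C166 cytoplasm in normoxia. The part of fractionation in these differences was not tested.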

How the results depend on the processing

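No direction of a tested member that had been called was reversed under any alternative. Of 138 results on single genes, 129 stayed on their side of the threshold with DESeq2, 131 with relative log expression factors, 131 with library totals alone, 130 with upper-quartile factors, 130 with no filter and 132 with only the libraries compared. With the replicate block all 138 did. Counts of members called with the replicate block were the same, such as 2 for the shift in C166 at 24 h, where 1290 genes were called against 1405. The number of members called went from 0 to 1 for the line difference in the nucleus to cytoplasm ratio (Pspc1) with relative log expression or upper-quartile factors or DESeq2, for the C166 shift at 2 h (Malat1) with no filter, for C166 cytoplasm at 2 h with no filter (Neat1) or DESeq2 (Sfpq), for C1.1 nucleus at 2 h (Malat1) with no filter or only the libraries compared, and with DESeq2 for the C1.1 shift at 2 h and the cytoplasmic response difference (Sfpq in both). It went from 2 to 1 for the C1.1 shift at 24 h (Malat1) with only the libraries compared. With 1 library left out it was 5 to 6 for the ratio in C166 in normoxia and at 24 h, 2 to 3 and 4 to 5 for C166 and C1.1 cytoplasm at 24 h, 3 to 5 and 3 to 6 for their nuclei at 24 h, 0 to 1 for C166 nucleus at 2 h, 2 to 3 for the lines in the nucleus, 1 to 2 for the C1.1 shift at 24 h and 0 to 1 for the response difference in either fraction. Over all genes, edgeR and DESeq2 called 4 and 19 for the C166 shift at 2 h, 0 and 214 for the C1.1 shift at 2 h, 111 and 260 for the line difference in ratio, 201 and 464 for C166 cytoplasm at 2 h, 292 and 792 for C1.1 cytoplasm at 2 h, 362 and 546 for C166 nucleus at 2 h, 517 and 803 for C1.1 nucleus at 2 h, and 350 and 821 (cytoplasm) and 748 and 1123 (nucleus) for the response difference. With no filter, edgeR called 28 for the C166 shift at 2 h, 209 for the C1.1 shift at 2 h, 232 for the line difference in ratio, 560 and 648 for C166 and C1.1 cytoplasm at 2 h and 710 for the cytoplasmic response difference. With only the libraries compared it called 0 and 89 for the C166 and C1.1 shifts at 2 h, 330 against 1405 and 2934 against 1843 for those at 24 h, 51 for the line difference in ratio, 26 and 1385 for C166 and C1.1 cytoplasm at 2 h, 3132 against 5362 for C166 cytoplasm at 24 h, 3306 against 5326 for the lines in the cytoplasm, 144 for the cytoplasmic response difference and 699 for C166 nucleus at 2 h. Scaling moved the median log2 ratio of nucleus to cytoplasm over all genes, from 0.17 to 0.29 in C166 and from 0.03 to 0.24 in C1.1 in normoxia with relative log expression factors. The cause of these changes was not tested. Depth limited Miat, which could not be tested.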

Other observations

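The genes whose levels followed Neat1 most closely over the 12 groups, by Pearson correlation of the group means of log2 CPM among 8054 genes, were Jmjd1c (r = 0.997), Erc1 (r = 0.990) and Leng8 (r = 0.988). These values describe 12 points that share libraries, depth and the large difference between fractions. Jmjd1c, a gene of the histone demethylase family, was at 188 CPM in the nucleus of C166 in normoxia and 276 CPM in that of C1.1. In the cytoplasm it was at 77.2 CPM in C166 and 103 CPM in C1.1 in normoxia, and at 110 and 131 CPM at 24 h. Malat1 was followed most closely by Arhgef1 (r = 0.983), Cep290 (r = 0.979) and Tjp1 (r = 0.979), and Sfpq by Skiv2l2 (r = 0.994), Ahctf1 (r = 0.989) and Fastkd5 (r = 0.989). Neat1 and Malat1 themselves had r = 0.72, and Neat1 and Tug1 had r = -0.77.

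Of the 7 tested genes of a list of cytoplasmic long noncoding RNAs and host genes of small nucleolar RNAs, 6 were higher in the nucleus in C166 in normoxia, where 31.8% of all genes were, and 1 did not pass. In C1.1, 4 were higher (28.6% of all genes), 1 was lower and 2 did not pass. Snhg12 had a log2 ratio of 1.69 in C166 and 1.86 in C1.1, and Gas5, a host gene known to respond to growth arrest, 1.20 and 1.69. At 24 h Snhg12 shifted toward the cytoplasm by -1.01 and -1.22 and Snhg8 by -0.87 and -0.69. The 5 tested mRNAs of the mitochondrial genome were lower in the nucleus in both lines, as were 26.2% (C166) and 29.0% (C1.1) of all genes. Of these 5, mt-Nd1 was at -6.07 in C166 and -4.76 in C1.1. The mitochondrial ratios rest on few nuclear counts. In C166 in normoxia, the 7 such mRNAs with a row summed to 27.2 to 57.1 CPM in the cytoplasm and 0.774 to 1.21 CPM in the nucleus.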
